A study of Mus musculus with 7 samples.

Results

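Binding of the glucocorticoid receptor was examined around 8 genes of amino acid handling that are linked to KLF15: Prodh, Bcat2, Alas1, Gpt2, Got1, Glul, Tat and Slc7a2. Each gene was represented by an approximate mm9 start site, rounded to 10 kb, and a site was taken as near the gene when it lay within 100 kb of that point on either side. These 8 windows held 44 peak summits, which formed 25 of the 35316 receptor sites of the series. The data were chromatin immunoprecipitation and sequencing (ChIP-seq) of the glucocorticoid receptor (NR3C1), pulled down with an in-house antibody from mouse embryonic fibroblasts. The groups were Klf15-/- cells with dexamethasone (2 libraries), wild-type cells with dexamethasone (2), Klf15-/- cells with ethanol vehicle (2) and wild-type cells with vehicle (1 library of pooled material). Dexamethasone, a synthetic glucocorticoid, or vehicle was given for 1 h. All fibroblasts came from embryos at day 14 to 17 of gestation and were used between passages 4 and 11. Nothing in the labels gives the Klf15 allele, the number of embryos or the cultures behind each library, and replicate spread may be purely technical. The files hold no expression values, so neither the cell type nor the genotype was checked against markers. Klf15-/- vehicle library 1 stood apart, with 414 pairs of close summits (less than 200 bp), where the other lists had 0 to 4, and it gave 1 of the 44 summits near the 8 genes. The control used for peak calling is not known, so signal independent of the receptor cannot be told apart from binding, and a missing summit does not show that a site was empty.

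The glucocorticoid receptor is a ligand-activated transcription factor that enters the nucleus on hormone binding and attaches to DNA. Klf15, which encodes a zinc-finger factor of the Krüppel-like family, is among the genes it induces, and the factor binds GC-rich and CACCC elements. KLF15 is known from mouse liver and muscle for its effect on amino acid breakdown, and receptor and KLF15 can act on the same target genes in sequence. The 8 genes cover several steps. Prodh (proline dehydrogenase) starts proline breakdown in mitochondria, and Bcat2 encodes the mitochondrial branched-chain aminotransferase. Gpt2, Got1 and Tat encode aminotransferases for alanine, aspartate and tyrosine. Glul encodes glutamine synthetase, Slc7a2 a transporter of cationic amino acids, and Alas1 the rate-limiting enzyme of heme synthesis, which uses glycine.

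Promoter sequences were taken from RefSeq (GRCm38.p6), in which 7 of the 8 genes had an entry, with 9 windows in all. The stretches of Glul and Got1 are shown because these were the genes with a site in every dexamethasone list. Each is the 250 bases before the annotated start, 5′ to 3′ on the gene's strand, and capitals mark the elements of the kind that Krüppel-like factors bind, on either strand. The Glul stretch is chr1:153899679-153899928 on the plus strand, and the Got1 stretch is chr19:43524606-43524855 on the minus strand. These positions belong to another build than the summits, so a summit cannot be placed within them.
Glul: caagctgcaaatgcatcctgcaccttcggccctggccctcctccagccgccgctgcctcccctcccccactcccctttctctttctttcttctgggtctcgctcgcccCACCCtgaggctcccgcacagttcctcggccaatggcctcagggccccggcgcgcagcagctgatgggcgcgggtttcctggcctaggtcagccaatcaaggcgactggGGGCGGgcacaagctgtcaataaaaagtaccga
Got1: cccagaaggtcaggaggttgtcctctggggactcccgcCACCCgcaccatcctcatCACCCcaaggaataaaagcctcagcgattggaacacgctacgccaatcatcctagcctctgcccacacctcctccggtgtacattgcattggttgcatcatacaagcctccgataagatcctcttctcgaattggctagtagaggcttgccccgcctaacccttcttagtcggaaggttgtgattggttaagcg
The GC box was searched as GGGCGG and the CACCC box by the letters of its name, each on both strands, and no matches overlapped. Glul held 1 of each, with the GC box 28 to 33 bases and the CACCC box 138 to 142 bases before the start. Got1 held 2 CACCC boxes, at 190 to 194 and 208 to 212 bases, and no GC box. Across the 9 windows, 8 held a CACCC box, against 52.0% of all 32851 promoter windows, and 3 held a GC box, against 32.7%. The receptor's hexamer AGAACA, on either strand, was in 0 of the 9 windows, against 16.1% of all, and its full palindromic element, which contains the hexamer, in 0 of 9, against 0.00913%. Such matches describe letters and do not show binding.

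Receptor sites near these genes were mostly low in rank and mostly found in a single library. Of the 25 sites, 15 were held by 1 of the 7 lists, or 60.0%, where 38.7% of all sites of the series were. No site was held by all 7 lists, which 6.22% of all sites were. Only the sites near Glul and Got1 reached all 4 dexamethasone lists, so 2 of 25 sites did, against 25.4% of all sites. Both Klf15-/- dexamethasone lists held 5 of the 25 sites (42.1% of all sites), and both wild-type dexamethasone lists held 4 (34.2% of all sites). With a single library standing for its genotype, the counts were 10 without either Klf15-/- library, 11 without wild-type library 1 and 7 without wild-type library 2. Without wild-type library 1, 4 sites were in all remaining dexamethasone lists, the added ones being near Gpt2 and Slc7a2. Shares of all sites under these looser rules were not computed, so the percentages above do not apply to these counts. The plot of recurrence across libraries shows the shift towards single lists.

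**Figure D1:**
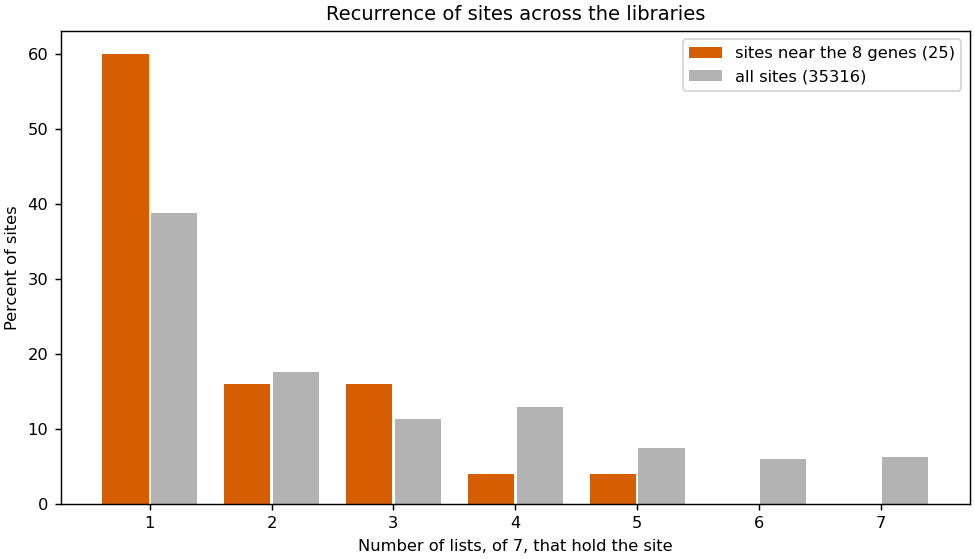
Percent of sites (vertical axis) by the number of lists, of 7, that held them (horizontal axis), for the 25 sites near the 8 genes and for all 35316 sites. Sites in a single list made up 60.0% near the 8 genes and 38.7% of all, and no site near the genes was in 6 or 7 lists.

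In number, the sites were not fewer than in the genome at large, taken in tiles of the same length. The windows held 3 sites in the median and 3.13 on average, while 13197 adjoining tiles of 200 kb along chromosomes 1 to 19 and X held 1 in the median and 2.66 on average. Gpt2 and Slc7a2 had the most, with 6 sites each, and 16.9% of tiles held at least 6. Bcat2 had none, and 36.7% of tiles had none. This order depends on the window: within 50 kb Slc7a2 had 5 sites and Gpt2 2, and within 200 kb Gpt2 and Alas1 had 10 each, Slc7a2 7, Tat 6 and Bcat2 3. Sites held by all 4 dexamethasone lists averaged 0.25 per window and 0.680 per tile, and 2 of 8 windows held at least 1, against 32.9% of tiles. A site in both dexamethasone lists of a genotype was found at 4 of the 8 genes (Gpt2, Got1, Glul and Slc7a2), against 48.1% of tiles. The tiles ran along whole chromosomes, with or without genes, while each window was centred on a gene. Comparisons with tiles, here and below, therefore do not show how these windows stand against other gene loci. A summit was ranked by its score within its own list, as the percent of that list with a lower score. The 38 member summits of the dexamethasone lists had a median percentile of 20.7, and 8 of them, at 5 of the 25 sites, were above 50, the middle of each list by construction. Of all sites, 42.7% were above 50 in some dexamethasone list.

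**Figure D2:**
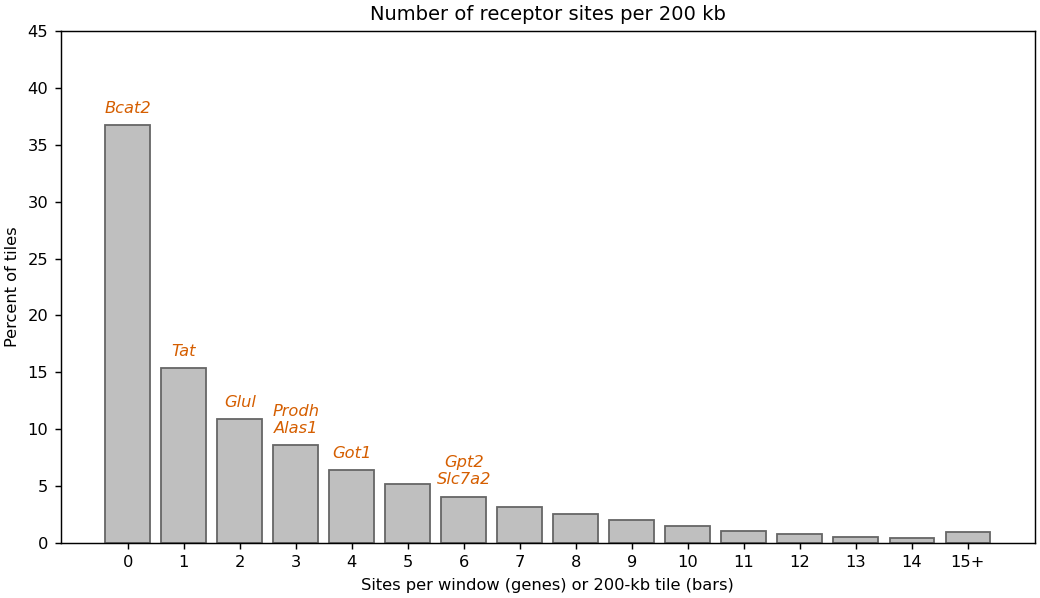
Percent of 200-kb tiles (vertical axis) by their number of receptor sites (horizontal axis), with each gene's name above the bar of its own window's count. Bcat2 stands at 0 and Gpt2 and Slc7a2 at 6, all within the range of the tiles.

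In the lists as called, dexamethasone lists held more of these summits than vehicle lists, also as a share of the list. The Klf15-/- dexamethasone lists held 10 and 10 of them, or 0.0500% and 0.0496% of their summits, with exact (Clopper-Pearson) 95% intervals of 0.0240 to 0.0919% and 0.0238 to 0.0912%. The wild-type dexamethasone lists held 7 and 11, or 0.0448% (0.0180 to 0.0923%) and 0.0650% (0.0324 to 0.116%). With vehicle, the Klf15-/- lists held 1 and 2, or 0.0137% (0.00035 to 0.0760%) and 0.0247% (0.0030 to 0.0893%), and the wild-type list held 3, or 0.0299% (0.0062 to 0.0874%). The 4 dexamethasone lists averaged 0.0523% ± 0.0088 (SD, n = 4) and the 3 vehicle lists 0.0228% ± 0.0083 (SD, n = 3). At full list length the treatments did not overlap. The vehicle shares rest on 1 to 3 summits each. How often other windows separate the treatments in this way was not computed, so the separation cannot be called particular to these genes. Also at full list length, the genotypes overlapped after dexamethasone, with means of 0.0498% ± 0.0003 for Klf15-/- cells and 0.0549% ± 0.0143 for wild-type cells (SD, n = 2 each). The intervals of all 7 shares overlap and cover counting error only. A list called per library grows with read depth, which the files do not give, and whole lists ranged from 7325 to 20169 summits. The treatment difference of 0.0296 percentage points was 0.0156 in lists cut to equal length within each treatment. In those lists the treatments overlapped, and both Klf15-/- dexamethasone shares were below both wild-type ones. How often other windows do so was not computed. The cut left 15628 summits in each dexamethasone list and 7325 in each vehicle list. The 38 dexamethasone summits near the genes had a median percentile of 20.7, and a cut of all 7 lists to the same length was not tested. Genotype was not tested at any gene, because the smallest two-sided p of an exact permutation test at this size (2 against 2) is 0.333.

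**Figure D3:**
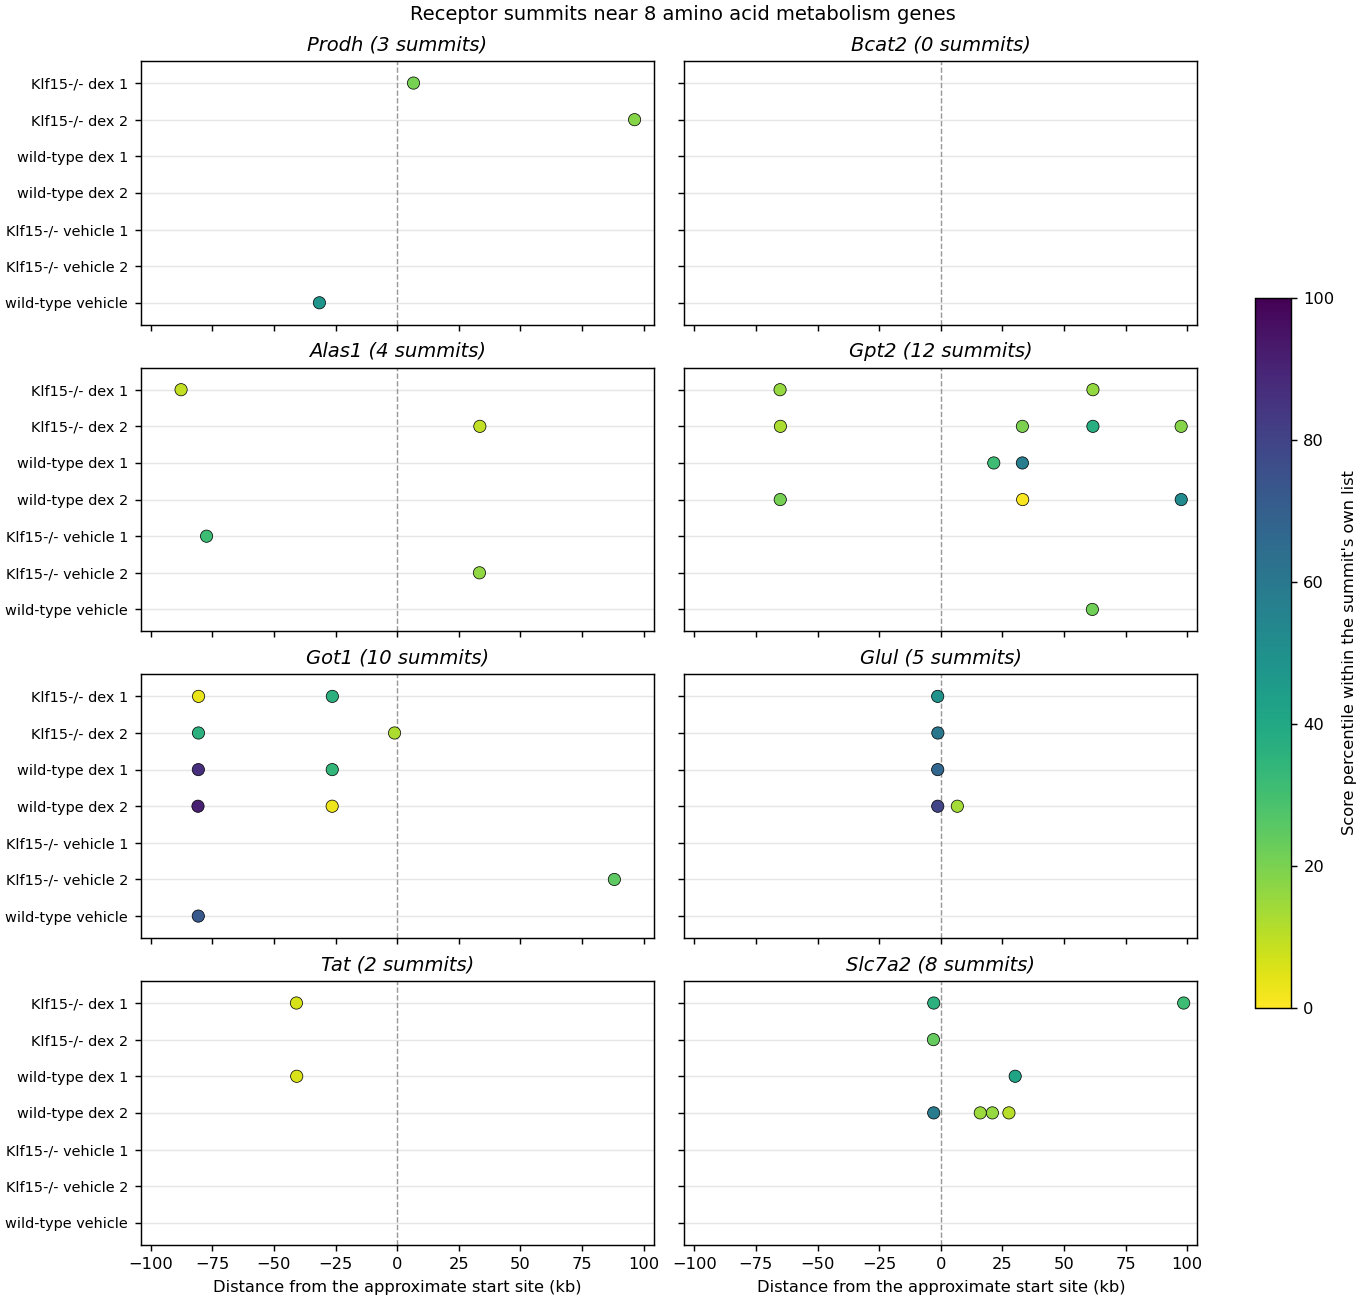
Receptor summits within 100 kb of each gene's approximate start site, 1 panel per gene, with the distance in kb on the horizontal axis and 1 row per library, dexamethasone libraries (dex) above vehicle ones. Colour gives the score percentile within the summit's own list. The Glul column near 0 and the Got1 column at -80.7 kb are the ones present in all 4 dexamethasone libraries.

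Glul, the glutamine synthetase gene, had the most regular site of the 8. It spanned 155748739 to 155748815 on chromosome 1 (mm9), 1.22 kb to the lower side of the point, which is less than the rounding of the point. The summits lay at 155748739 and 155748815 in Klf15-/- dexamethasone libraries 1 and 2, and at 155748755 and 155748765 in wild-type ones. All 4 thus fell within 77 bp, and no vehicle list had a summit there. Among all sites held by the 4 dexamethasone lists, 69.1% had a vehicle summit, so this one belonged to the minority without. Its percentiles were 49.5 and 60.2 in Klf15-/- libraries, against 67.1 and 79.8 in wild-type libraries. The genotypes did not overlap, and the mean was 54.8 ± 7.5 in Klf15-/- and 73.5 ± 9.0 in wild-type cells (SD, n = 2 each), a difference of -18.6 points. Both Klf15-/- percentiles were below both wild-type ones at 20.2% of the 8977 sites held by all 4 lists, and 1013 of these sites had a lower difference than Glul. The reverse order held at 33.8% of them, and at neither of the Glul and Got1 sites. The difference was -30.6 points in lists of equal length. Chromosome 1 as a whole held a larger share of the Klf15-/- dexamethasone lists (7.29%) than of the wild-type ones (6.56%). This is a share of summits and not a rank, and its part in the Glul result was not tested. A single weak summit, at percentile 13.7 in wild-type library 2, lay 6.72 kb to the higher side.

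Got1, which encodes the cytosolic aspartate aminotransferase, carried the highest-ranked site of the 8 windows and, of the 2 sites in all 4 dexamethasone lists, the wider gap between genotypes. This site spanned 43519200 to 43519423 on chromosome 19, 80.7 kb to the lower side of the point. Its percentiles were 3.40 and 36.0 in the Klf15-/- dexamethasone libraries, against 86.7 and 91.4 in the wild-type ones. With vehicle it was absent from both Klf15-/- lists and present in the wild-type list, which was 1 library, at percentile 72.5. It was the sole site of the windows in all 4 dexamethasone lists and a vehicle list, a class of 17.6% of all sites, and without the wild-type vehicle library the windows held 0 such sites. Both wild-type dexamethasone libraries were therefore above both Klf15-/- ones. The vehicle percentile is a rank in a list of 10034 summits, against 19999 and 20169 in the Klf15-/- dexamethasone lists, and is not comparable with theirs. Means were 19.7 ± 23.1 in Klf15-/- and 89.0 ± 3.3 in wild-type cells (SD, n = 2 each), a difference of -69.3 points. Of the 8977 sites held by all 4 dexamethasone lists, 10 had a lower difference, and the central 90 percent ran from -29.7 to 39.0 around a median of 2.21. Ranked among summits of the same chromosome and list only, the difference was -66.5 points.

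Summits of the genotypes at this Got1 site also stood at different positions, and how often this happens over all sites was not computed. They lay at 43519423 and 43519395 in Klf15-/- dexamethasone libraries 1 and 2, at 43519344 and 43519200 in wild-type dexamethasone libraries 1 and 2, and at 43519325 in the wild-type vehicle library. The nearest Klf15-/- and wild-type summits were 51 bp apart, less than the distance between the summits of wild-type dexamethasone libraries 1 and 2. The summit of wild-type dexamethasone library 2 was 125 bp from the next one. With a linkage of 100 bp the site therefore split and was no longer held by all 4 lists, and in lists of equal length it was missing from Klf15-/- library 1. A single element used by both genotypes and separate neighbouring elements cannot be told apart here. Chromosome 19 held 2.81% of the Klf15-/- and 3.29% of the wild-type dexamethasone lists, a ratio of 0.854. The part of this chromosome-wide gap in the Got1 result was not tested beyond the ranking within the chromosome.

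The other Got1 sites were weaker. One at 43573628 to 43573701, 26.3 kb to the lower side, was held by Klf15-/- dexamethasone library 1 at percentile 36.2, and by wild-type libraries 1 and 2 at 34.2 and 2.46. The nearest to the point, 1.06 kb to the lower side, was a single summit at percentile 12.3 in Klf15-/- dexamethasone library 2. The remaining one, 88.1 kb to the higher side, was found in Klf15-/- vehicle library 2 only. In the annotated gene order (GRCm38), Cnnm1 and Nkx2-3 flank Got1, and assignment of a site to any of these genes was not possible.

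**Figure D4:**
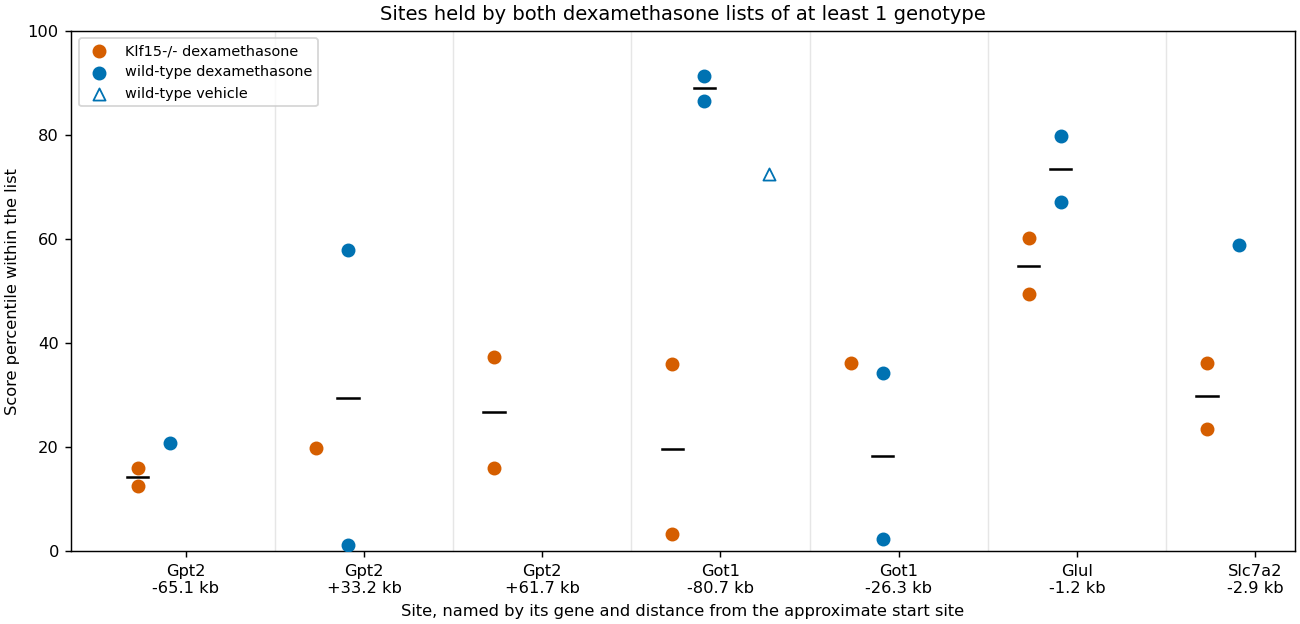
Score percentile within the list (vertical axis) for the 7 sites held by both dexamethasone lists of at least 1 genotype, labelled by gene and distance from the start site. Each symbol is 1 library, a bar is the mean of 2, and a missing symbol means no summit. The widest gap between the genotypes is at Got1 -80.7 kb, where Klf15-/- libraries stand at 3.40 and 36.0 and wild-type libraries at 86.7 and 91.4.

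Among the remaining aminotransferase genes, Gpt2 had several modest sites and Tat almost none. Gpt2 encodes the mitochondrial alanine aminotransferase. Its site at 87954799 to 87954950 on chromosome 8, 65.1 kb to the lower side, stood at percentiles 15.9 and 12.6 in Klf15-/- dexamethasone libraries and at 20.9 in wild-type library 2. The one at 88053102 to 88053211, 33.2 kb to the higher side, stood at 19.9 in Klf15-/- library 2, against 58.0 and 1.13 in the wild-type libraries. That spread between wild-type replicates covers the Klf15-/- value.

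Gpt2 also had the sole site of the 8 windows that was found in both Klf15-/- and neither wild-type dexamethasone list, a class of 9.78% of all sites. It lay at 88081718 to 88081723, 61.7 kb to the higher side, at percentiles 16.1 and 37.3. A wild-type vehicle summit at percentile 21.7 was 231 bp away, just past the linkage of 200 bp. No site of the windows was in both wild-type and neither Klf15-/- dexamethasone list, a class of 4.39% of all sites. With 1 library left in a genotype, the first class held 4 sites without either Klf15-/- library and 3 without wild-type library 2, and the second held 1 without either Klf15-/- library, 4 without wild-type library 1 and 2 without wild-type library 2. Shares of all sites with 1 library left were not computed, so 9.78% and 4.39% do not apply to these counts. The nearest Gpt2 site, 21.5 kb from the point, was in wild-type dexamethasone library 1 only, at percentile 31.0. Another at 97.5 kb was in Klf15-/- library 2 at percentile 18.2 and in wild-type library 2 at 52.3.

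Tat encodes tyrosine aminotransferase, a liver enzyme long used to study glucocorticoid induction. Its window had 1 site, 40.8 kb to the lower side at 112469130 to 112469244 on chromosome 8. The site was at percentile 6.24 in Klf15-/- library 1 and at 5.55 in wild-type library 1, near the bottom of both dexamethasone lists, and in no other list. No library had a summit within 40 kb of the Tat point.

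Slc7a2, whose product imports arginine and lysine, had 6 sites, of which 5 were in 1 list each. The exception lay at 41947023 to 41947148 on chromosome 8, 2.91 kb to the lower side of the point. Its percentiles were 36.2 and 23.5 in Klf15-/- dexamethasone libraries and 58.9 in wild-type library 2, while wild-type library 1 and all vehicle lists lacked it. Of the single summits, 3 were in wild-type library 2 between 16.0 and 27.6 kb to the higher side, at percentiles 15.2, 15.8 and 10.8. Another was in wild-type library 1 at 30.2 kb and percentile 41.5, and the last in Klf15-/- library 1 at 98.5 kb and percentile 31.6. Gpt2, Tat and Slc7a2 all lie on chromosome 8, which held 5.00% of the Klf15-/- and 5.76% of the wild-type dexamethasone lists.

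Prodh, Bcat2 and Alas1 had no site held by both dexamethasone libraries of either genotype. For Prodh, the proline dehydrogenase gene, single summits were found 6.62 kb to the higher side in Klf15-/- dexamethasone library 1 (percentile 20.4), at 96.3 kb in Klf15-/- dexamethasone library 2 (percentile 18.2) and 31.5 kb to the lower side in the wild-type vehicle library (percentile 47.9). No position was repeated between libraries, and neither wild-type dexamethasone list had a summit. Around Bcat2, whose product transaminates leucine, isoleucine and valine, the window held no summit of any library, and the nearest site was 105.5 kb away. That site, at 52935475 to 52935530 on chromosome 7, was in Klf15-/- dexamethasone libraries 1 and 2 at percentiles 45.5 and 24.0 and in wild-type library 2 at 55.3. For Alas1, a summit of Klf15-/- dexamethasone library 2 (percentile 9.54) and one of Klf15-/- vehicle library 2 (percentile 16.7) lay 160 bp apart, 33.5 kb to the higher side. The other Alas1 summits were single, at percentile 9.32 in Klf15-/- dexamethasone library 1 and 31.3 in Klf15-/- vehicle library 1. All 4 Alas1 summits were thus from Klf15-/- libraries, which contributed 4 of the 7 lists.

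The genes differed in which libraries reached them. Some Klf15-/- dexamethasone library had a summit near 7 of the 8 genes, against 55.5% of all tiles, and some wild-type dexamethasone library near 5, against 48.6% of tiles. The Klf15-/- lists were the longer ones, and a difference between the genotypes in this count was not tested. Vehicle summits occurred near 4 genes (48.9% of tiles had one), at 6 sites (24.0% of the 25 sites, against 45.8% of all sites). Of the 25 sites, 4 had a vehicle summit and no dexamethasone summit, a class of 12.7% of all sites. Near Glul, Tat, Slc7a2 and Bcat2 there was no vehicle summit at all. At the border of the windows, the last site inside was the Slc7a2 one at 98.5 kb, and the first outside was a Prodh neighbour at 105.4 kb, held by 4 lists at percentile 43.7 in Klf15-/- dexamethasone library 2, 24.5 and 33.3 in wild-type dexamethasone libraries and 24.9 in Klf15-/- vehicle library 2.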

How the data were processed

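Receptor ChIP-seq of 7 libraries was used, with 1 list of peak summits each. Per the submitters' processing notes, reads were handled with CASAVA 1.4, Bowtie2 and SAMtools on mm9. The caller, its control and its threshold are unknown here. Each deposited list gives a position and the authors' score, whose scale is not stated. Scores were ranked only within their own list, as percentiles with ties at the middle, and a site took its best summit. Ranks from lists of different lengths are descriptions.

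Neighbouring summits up to 200 bp apart, from any library, were joined into a site, and a list held a site when it had a summit in it. Coordinates are mm9, counted from 1. The 8 genes and their points were chosen with earlier results of these data known, so no p-value is given over them, and the permutation test planned for the share of a list in the windows is not reported. The sites described singly include the one nearest each point and the 7 in both dexamethasone lists of either genotype. Percentiles under other settings were computed for these 7 only. Neighbour names came from RefSeq (GRCm38), with no coordinates transferred. Scripts ran in Python 3.11.15 with scipy 1.17.1, pandas 2.3.3, numpy 2.4.6 and matplotlib 3.10.9. Linkage was tested on simulated data. Read depth is unknown.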

Additional observations from a re-analysis of the deposited data

Results flagged for a closer look

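Near Prodh the number of summits was higher after dexamethasone in Klf15-/- cells and lower in wild-type cells. In Klf15-/- cells the window held 1 and 1 summits with dexamethasone and 0 and 0 with vehicle, a change of 1 in the mean count. In wild-type cells it held 0 and 0 with dexamethasone and 1 in the single vehicle library, a change of -1. The difference was not tested, rests on 3 summits at 3 positions, and concerns 1 of 8 genes examined in this way. No group had enough libraries to look for an outlying one.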

How the results depend on the processing

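Of 200 recomputed values, 129 stayed close to the reported ones, 71 moved and none reversed. Most of them were counts, which cannot change sign. Only the treatment difference in share and the genotype differences at the Got1 and Glul sites could have reversed. Within 50 kb of the points there were 15 sites, with 2 in both Klf15-/- dexamethasone lists, 1 in all 4 (0 of them with a vehicle summit) and 0 in Klf15-/- only. Within 200 kb there were 47, a median of 5.5 per gene, with 17 in both Klf15-/- lists, 13 in both wild-type lists, 9 in all 4 (4 of them with a vehicle summit), 4 in Klf15-/- only and 1 in wild type only, and the treatment difference in share was 0.0648 points. Moving the points by 5 kb changed no count by over 1.5 times. Summits above the median score of their list gave 5 sites, a median of 0.5 per gene, with 0 in both Klf15-/- lists, 2 in both wild-type lists, 0 in all 4, 0 in all 4 with a vehicle summit, 0 in Klf15-/- only and 1 in wild type only, and a difference in share of 0.0173 points. Lists of equal length gave 2 sites in both Klf15-/- lists, 2 in both wild-type lists, 1 in all 4, 0 of these with a vehicle summit and 0 in Klf15-/- only, and a difference of 0.0156 points. A linkage of 100 bp gave 2 sites in both wild-type lists, 1 in all 4 and 0 of these with a vehicle summit. A linkage of 500 bp moved no summary count.

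Leaving out each library in turn, with the remaining one standing for its group (the wild-type vehicle group then has none), gave 21 to 24 sites, 5 to 10 in Klf15-/- lists, 4 to 11 in wild-type lists, 2 to 4 in both genotypes (1 of them with a vehicle summit, and 0 without the wild-type vehicle library), 1 to 4 in Klf15-/- only and 0 to 4 in wild type only. The difference in share was 0.0250 to 0.0332 points, the highest without the wild-type vehicle library. Without the first Klf15-/- vehicle library, no count of dexamethasone sites could change, because its only summit in the windows was at a site held by no other list. In same-numbered pairs of libraries (replicate block, pair 1 and pair 2, with no test), sites numbered 10 and 10 in Klf15-/- lists, 7 and 11 in wild-type lists, 4 and 6 in both, 6 and 4 in Klf15-/- only and 3 and 5 in wild type only. The labels do not say that the numbers pair libraries. Counts this small change with 1 or 2 sites, and the read depth behind them is unknown. Shares of all sites were not computed for these settings.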

Other observations

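For the 6 genes without a site in all 4 dexamethasone lists, the nearest such site lay outside the window, and this look past 100 kb was chosen after the values were seen. It was 128 kb to the lower side for Tat, 131 kb to the higher side for Alas1, 153 kb to the higher side for Gpt2, 209.9 kb to the higher side for Slc7a2, 280 kb to the lower side for Prodh and 1434 kb to the higher side for Bcat2. Over the 8 genes the median distance was 142 kb, against 216 kb from the centres of all 200-kb tiles. The site beyond Alas1, at 106280501 to 106280578 on chromosome 9, had no vehicle summit. Its percentiles were 90.9 and 94.1 in the Klf15-/- dexamethasone libraries, against 24.5 and 49.3 in the wild-type ones, so the genotypes did not overlap. Both Klf15-/- percentiles were above both wild-type ones at 33.8% of sites held by all 4 lists, and chromosome 9 held 5.07% of the Klf15-/- and 4.48% of the wild-type dexamethasone lists. In the annotated gene order, Poc1a and Dusp7 follow Alas1. The site beyond Tat, at 112381641 to 112381771 on chromosome 8, was in 6 lists, at percentiles 60.1 and 29.2 in Klf15-/- and 24.5 and 18.8 in wild-type dexamethasone libraries, and at 25.0 and 5.48 in the Klf15-/- vehicle libraries.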
